A study of Mus musculus with 12 samples.

Results

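Ptpn2, Ptpn6, Ptpn7, Ptpn11, Ptpn22, Ubash3a, Ubash3b and Inpp5d encode phosphatases known to limit signalling from the T cell receptor (TCR). They were chosen by gene symbol for that role, and all 8 were among the 10073 genes in the deposited expression table. The 12 RNA-seq libraries came from naive CD4 T cells of 3 untreated mice, and the series asks which transcripts go with strong basal TCR signals in cells given no TCR stimulus. Every mouse carried the Tg(Nr4a1-EGFP)GY139Gsat transgene together with the Foxp3tm1Flv targeted mutation on a C57/BL6 background, so no group lacks either allele. The sources used here do not state the age. In the transgene, regulatory sequence of Nr4a1 (the gene for Nur77) drives GFP, and the Foxp3 allele makes regulatory T cells red. From spleen and lymph nodes, CD4 positive cells low in CD44 and without the Foxp3 reporter were sorted into 4 populations, each as 1 library per mouse. Ly6C positive cells gave population A (low GFP) and population B (intermediate GFP). Ly6C negative cells gave population C (intermediate GFP) and population D (high GFP). A library is called by the population and mouse number on its label, so A1 is the library labelled population A of mouse 1.

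An engaged TCR is phosphorylated on its CD3 chains by the kinase Lck, which lets Zap70 bind and pass the signal on, and naive cells receive a weak form of this signal from self ligands. Tyrosine phosphatases remove the phosphate from Lck, Zap70 and their substrates, and other phosphatases act on MAP kinases or on the lipid PIP3. Several of these enzymes are held near the receptor by inhibitory receptors or adaptors, which is how they set the threshold for activation.

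The stretch around a gene's annotated start is where transcription factors downstream of the TCR could bind, so such windows were read for the genes whose levels differed most between C and D. RefSeq windows of GRCm38.p6, from 250 bases before to 50 after a start, were read for 7 of the 8 genes, with 10 windows in all. No window of Ptpn2 was read, so nothing is said of its motifs. Each window thus covers the proximal promoter and the first bases of the first exon. For Ubash3b, Ptpn22 and Ptpn7, which have 2 annotated starts each, the window with more matches is shown, and Ptpn11 has 1 window. They lie at chr9:41158013-41158312 (minus strand) for Ubash3b, chr3:103860027-103860326 (plus strand) for Ptpn22, chr1:135133059-135133358 (plus strand) for Ptpn7 and chr5:121191348-121191647 (minus strand) for Ptpn11. Capitals mark matches to any of the motifs named in the next paragraph, on either strand.
Ubash3b: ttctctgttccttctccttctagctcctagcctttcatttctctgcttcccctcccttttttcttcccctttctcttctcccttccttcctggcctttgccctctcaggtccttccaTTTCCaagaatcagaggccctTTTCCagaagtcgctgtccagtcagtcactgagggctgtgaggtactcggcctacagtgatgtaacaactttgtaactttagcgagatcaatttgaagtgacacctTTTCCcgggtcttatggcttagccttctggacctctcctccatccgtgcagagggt
Ptpn22: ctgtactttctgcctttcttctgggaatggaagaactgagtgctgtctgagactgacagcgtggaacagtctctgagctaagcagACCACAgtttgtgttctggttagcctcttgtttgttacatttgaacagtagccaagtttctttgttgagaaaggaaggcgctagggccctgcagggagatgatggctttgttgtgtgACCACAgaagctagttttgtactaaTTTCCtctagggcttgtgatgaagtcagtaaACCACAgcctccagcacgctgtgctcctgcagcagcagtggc
Ptpn7: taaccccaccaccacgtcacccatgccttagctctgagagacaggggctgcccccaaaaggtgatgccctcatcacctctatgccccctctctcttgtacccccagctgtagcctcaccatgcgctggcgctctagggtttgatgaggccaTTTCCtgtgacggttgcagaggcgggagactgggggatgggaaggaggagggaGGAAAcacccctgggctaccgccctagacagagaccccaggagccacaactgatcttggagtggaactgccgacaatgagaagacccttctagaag
Ptpn11: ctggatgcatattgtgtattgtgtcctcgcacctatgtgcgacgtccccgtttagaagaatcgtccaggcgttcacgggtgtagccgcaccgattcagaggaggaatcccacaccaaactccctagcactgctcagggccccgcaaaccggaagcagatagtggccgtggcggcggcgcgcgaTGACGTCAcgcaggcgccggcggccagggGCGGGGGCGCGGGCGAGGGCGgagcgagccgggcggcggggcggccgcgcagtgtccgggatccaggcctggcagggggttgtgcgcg

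The motifs searched on both strands were the NFAT core GGAAA, AP-1 (TGANTCA), the Nur77 element AAAGGTCA, EGR (GCGNGGGCG), CRE (TGACGTCA) and RUNX (TGTGGT). The NFAT core contains the ETS core GGAA, so those factor families cannot be told apart by it. The Ubash3b window held 3 matches to the NFAT core, the Ptpn7 window 2 and the Ptpn22 window 1, a motif found in 61.3% of all 32851 RefSeq windows of this length. RUNX matched 3 times in the Ptpn22 window, and 16.8% of all windows held at least 1 match. The share of windows with 3 matches was not counted for any motif. In Ptpn11, whose window was 68.7% GC, 3 EGR matches overlapped one another end to end beside 1 CRE match. The shares of all windows with at least 1 match were 5.55% and 1.79%. Of the other windows, those of Ubash3b, Ptpn6 and Inpp5d held 1, 1 and 2 NFAT core matches, and the window of Ubash3a and the other windows of Ptpn7 and Ptpn22 held none of the motifs. AP-1 (7.81% of all windows) and the Nur77 element (1.51%) matched in none of the 10. A match is a run of letters and not evidence of binding.

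Values are RPKM, reads scaled to gene length and sequencing depth. An order between genes thus rests on the deposited gene lengths, whose annotation is not named. Averaged over the 12 libraries, Ptpn6 was the highest of the 8 at 105.5 RPKM (range 89.1 to 119.8), followed by Ptpn22 at 69.7 (56.5 to 80.6) and Ubash3a at 51.8 (46.6 to 55.4). Next came Ptpn7 at 47.7 (39.4 to 54.98), Inpp5d at 34.6 (31.1 to 37.1), Ptpn11 at 19.9 (17.3 to 23.5), Ubash3b at 13.1 (7.64 to 17.1) and Ptpn2 at 8.12 (6.99 to 9.33). The ranges of Ubash3a and Ptpn7 overlapped, as did those of Ubash3b and Ptpn2, and no other neighbours in this order overlapped. Ptpn6 stood at the 96.0th percentile of all genes listed and Ptpn2 at the 35.1st. The sequencing depth recovered from the values ran from 6.31 to 9.07 M reads per library. The smallest number of reads behind a value was 169, for Ubash3b, where counting error alone is 7.69%. For the other genes it was at least 468 reads.

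Transcripts of the sort markers went against the labels, for Nr4a1 in A1 and B1 and for Ly6c1 in the populations B and C. Nr4a1, the gene that the sorting reporter reads, measured 57.7, 26.1 and 22.9 RPKM in A1 to A3. The B libraries held 35.97, 73.3 and 64.6 RPKM in the same order of mice. In C it was 23.4 to 28.3 RPKM and in D 58.7 to 67.8. Ly6c1, which encodes a Ly6C protein, was 58.1 to 72.6 RPKM in the libraries labelled A and 37.1 to 50.2 in those labelled B, both Ly6C positive. It was 59.3 to 67.0 RPKM in C and 38.2 to 48.4 in D, both Ly6C negative. Every library labelled C, Ly6C negative, thus had more Ly6c1 than every library labelled B, Ly6C positive. Nr4a1 in C, labelled intermediate for GFP, lay near its level in A2 and A3, labelled low, while B2 and B3 lay near D. Library C3 had a summed 871 RPKM for 4 listed plasma cell markers of 8, against 22.4 to 34.3 elsewhere, and also held more Cd79a and Cd74. The sort's own cell type was seen in every library, with Cd4 at 224 to 250 RPKM and 9 of 10 naive CD4 markers listed, summing to 1957 to 2182. Results are therefore given for the libraries as labelled, and also without A1 and B1 or without C3.

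**Figure D1:**
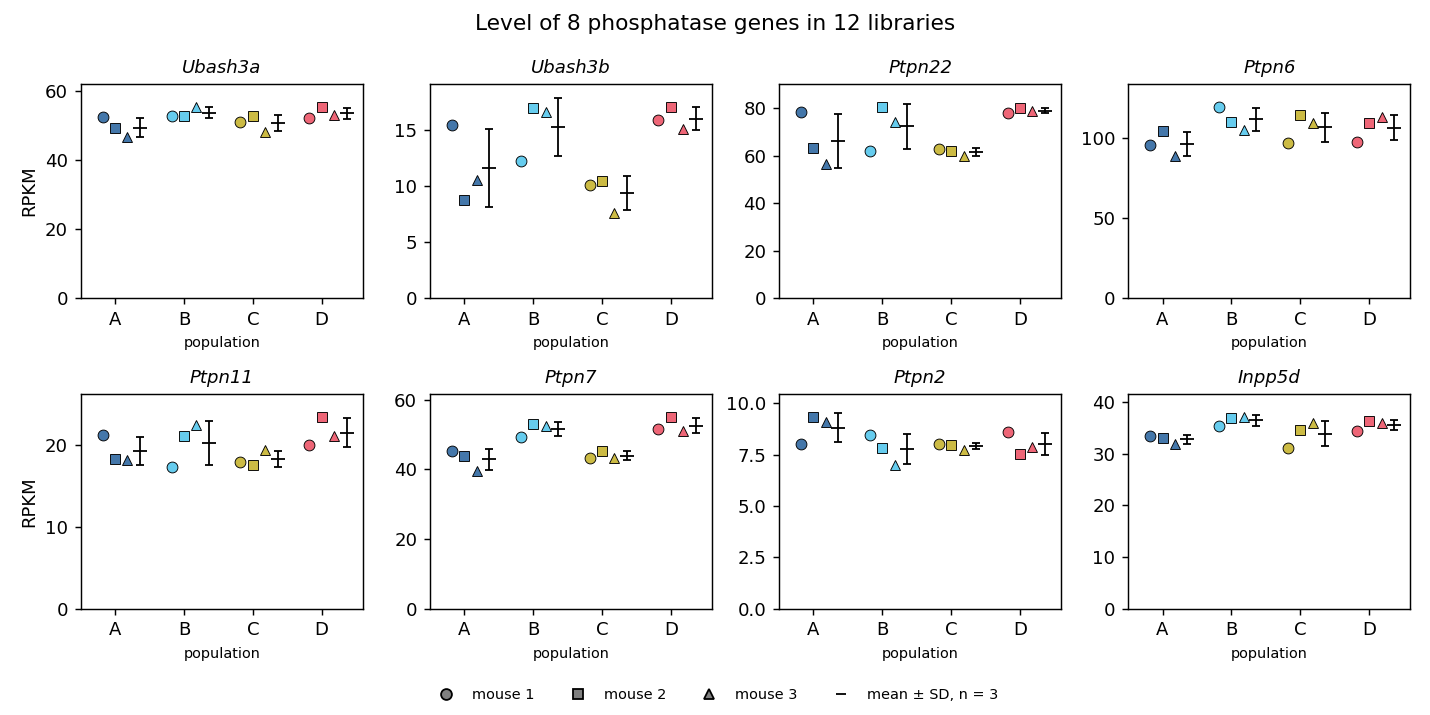
RPKM of the 8 phosphatase genes (vertical axis, from 0) in the libraries labelled A to D, with a symbol for each mouse and bars for the mean ± SD (n = 3). Ubash3b, Ptpn22 and Ptpn7 sit higher in all 3 D libraries than in any C library, and A1 and B1 lie away from their group in Ubash3b and Ptpn22.

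Ubash3b (Entrez 72828) encodes STS-1, a histidine phosphatase family enzyme with UBA and SH3 domains that acts on Zap70, and its RNA varied most of the 8, by 2.24-fold between libraries. It was 10.1, 10.4 and 7.64 RPKM in C1, C2 and C3 and 15.9, 17.1 and 15.1 in D1, D2 and D3. The 2 groups did not overlap, and the mean was 9.39 ± 1.52 RPKM in C and 16.05 ± 1.00 in D (SD, n = 3 each), a ratio of 1.71. In A it was 15.5, 8.78 and 10.6 RPKM, and in B 12.3, 17.0 and 16.6. A1 thus lay in the range of D while B1 lay between the other B libraries and the C libraries. The mean was 11.6 ± 3.48 RPKM in A and 15.3 ± 2.63 in B.

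Ptpn22 (Entrez 19260) encodes a phosphatase that removes the activating phosphate of Lck and Zap70 and works with the kinase Csk. It was 62.7, 61.9 and 59.9 RPKM in C1, C2 and C3 and 77.8, 79.98 and 78.9 in D1, D2 and D3. Within each of these groups the 3 mice lay close together, with a mean of 61.5 ± 1.48 RPKM in C and 78.9 ± 1.10 in D, a ratio of 1.28. A was scattered, with 78.5, 63.2 and 56.5 RPKM, and so was B, with 62.1, 80.6 and 74.2. A1 was at the level of D and B1 at the level of C. The means were 66.1 ± 11.2 RPKM in A and 72.3 ± 9.40 in B.

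Ptpn7 (Entrez 320139) encodes a haematopoietic phosphatase that inactivates the MAP kinases ERK and p38. It was 45.2, 43.9 and 39.4 RPKM in A, and 49.4, 52.9 and 52.4 in B. In C it was 43.2, 45.3 and 43.2 RPKM, and in D 51.5, 54.98 and 51.0. Every library labelled B or D exceeded every library labelled A or C, and the share of all genes that split this way was not counted. The mean was 1.20 times higher in B (51.6 ± 1.92) than in A (42.8 ± 3.08), and 1.20 times higher in D (52.5 ± 2.16) than in C (43.9 ± 1.23).

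Ptpn11 (Entrez 19247) encodes SHP-2, which binds phosphorylated inhibitory receptors such as PD-1 but also supports growth factor signalling. It was 17.96, 17.5 and 19.4 RPKM in C and 20.1, 23.5 and 21.1 in D, with no overlap and a ratio of 1.18. In A it was 21.3, 18.4 and 18.2 RPKM, and in B 17.3, 21.1 and 22.5, where again A1 was the highest of its group and B1 the lowest. Ptpn6 (Entrez 15170) encodes SHP-1, the related enzyme of haematopoietic cells. Its values in C and D overlapped, while all B values lay above those of A, with 95.6, 104 and 89.1 RPKM in A, 119.8, 110 and 105 in B, 96.8, 114 and 109.8 in C, and 97.7, 109.5 and 113 in D.

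Ubash3a (Entrez 328795) encodes STS-2, the paralogue of STS-1 with weaker phosphatase activity, which is largely restricted to lymphoid cells. It was 52.3, 49.2 and 46.6 RPKM in A, 52.7, 52.8 and 55.4 in B, 51.0, 52.8 and 48.1 in C, and 52.3, 55.3 and 52.99 in D. Inpp5d (Entrez 16331) encodes SHIP-1, which converts the lipid PIP3 that recruits Akt and Tec kinases. It was 33.4, 33.0 and 31.8 RPKM in A, 35.2, 36.9 and 37.1 in B, 31.1, 34.6 and 35.9 in C, and 34.4, 36.3 and 35.9 in D. Both genes varied by only 1.19-fold between the lowest and highest library. Ptpn2 (Entrez 19255) encodes TC-PTP, which acts on Lck, Fyn and the JAK and STAT proteins of cytokine receptors. It was 8.02, 9.33 and 9.10 RPKM in A, 8.47, 7.82 and 6.99 in B, 8.03, 7.96 and 7.73 in C, and 8.58, 7.52 and 7.87 in D.

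The comparison of libraries labelled GFP intermediate (B) and GFP low (A), both labelled Ly6C positive, had 1 of the 8 genes past the threshold. Differences between populations were tested with limma on log2(RPKM + 0.5), over 10021 genes and all 12 libraries, with p-values adjusted by the Benjamini-Hochberg method and 0.05 as the threshold. Ptpn7 rose by 0.27 ± 0.057 (± SE) on the log2 scale from A to B (limma adjusted p = 0.0463). It was higher in B in 3 of 3 mice, as were Ptpn6, Ubash3a and Inpp5d, and the share of all genes for which this held was not counted. In this comparison 2.23% of all genes passed, and 0.569% passed upwards. The differences of the 8 genes ran from -0.17 to 0.41 on the log2 scale, with a median of 0.14, against a median of 0.014 over all genes tested. These medians were not tested against each other. The call on Ptpn7 sat at the threshold. With the mouse as a replicate block it was lost (adjusted p = 0.0575), as it was with a GC content and length trend removed (0.166) and with no variance trend (0.0727), all in limma. It was also lost without A2 (0.139), A3 (0.151), B2 (0.116), B3 (0.151), C2 (0.0585), D2 (0.0719) or D3 (0.0602), each given as limma's adjusted p.

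For the other 7 genes the B minus A difference did not pass, and in the 6 libraries of A and B alone limma called 0 of the 8 (3.79% of all genes), with 3 at an unadjusted p under 0.05 (23.7%). Ubash3b differed by 0.41 ± 0.18 on the log2 scale (limma adjusted p = 0.207), Ptpn6 by 0.22 ± 0.080 (0.139), Inpp5d by 0.15 ± 0.055 (0.131) and Ubash3a by 0.12 ± 0.053 (0.198). Ptpn22 differed by 0.13 ± 0.11 (0.474), Ptpn11 by 0.07 ± 0.096 (0.708) and Ptpn2 by -0.17 ± 0.084 (0.236). Values of B and A did not overlap for Ptpn6, Ptpn7, Ubash3a and Inpp5d, 4 of the 8, where 29.2% of all genes had no overlap. By mouse, Ptpn22 differed between B and A by -0.34, 0.35 and 0.39 and Ubash3b by -0.33, 0.91 and 0.63 on the log2 scale in mice 1, 2 and 3. Mouse 1 thus ran opposite to the others in both genes. The B minus A difference of Ubash3b was 0.63 without A1 and 0.23 without A2, and that of Ptpn22 0.26 without A1 and 0.03 without A3. With the GC content and length trend removed it was 0.11 for Ptpn6, 0.04 for Inpp5d and 0.07 for Ubash3a.

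The comparison of D with C sets libraries labelled GFP high against those labelled GFP intermediate, both labelled Ly6C negative, and none of the 8 passed when all 12 libraries shared 1 estimate of spread. There 0.00998% of all genes, a single one, passed, and 4 of the 8 had an unadjusted p under 0.05, against 18.1% of all genes. Limma-voom on the recovered reads also called 0. Ubash3b differed by 0.75 ± 0.18 on the log2 scale (95% interval 0.35 to 1.15, limma adjusted p = 0.106), Ptpn22 by 0.36 ± 0.11 (0.126), Ptpn7 by 0.26 ± 0.057 (0.106) and Ptpn11 by 0.23 ± 0.096 (0.235). All 4 were higher in D in 3 of 3 mice, as were Ubash3a and Inpp5d, though by only 0.034 for Ubash3a in mouse 1 and 0.0017 for Inpp5d in mouse 3. The share of all genes higher in 3 of 3 mice was not counted. Ubash3b, Ptpn22, Ptpn7 and Ptpn11 are the 4 of 8 with no overlap, where 24% of all genes had none. Ubash3a differed by 0.08 (adjusted p = 0.457), Inpp5d by 0.07 (0.534) and Ptpn2 by 0.01 (0.960) in limma. The difference of Ptpn6 was -0.00, with a 95% interval of -0.18 to 0.17.

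In a limma fit of the 6 libraries of C and D alone, whose spread does not draw on A and B, 3 of the 8 genes rose from C to D. These were Ptpn22 (adjusted p = 0.00267), Ubash3b (0.00831) and Ptpn7 (0.0289), against 4.8% of all genes called and 3.35% called upwards. Ptpn11 did not pass (adjusted p = 0.140). With all 12 libraries but A1, limma called Ptpn7 (adjusted p = 0.0367), Ptpn22 (0.0432) and Ubash3b (0.0311). Without B1 it called Ptpn7 (0.0324) and Ubash3b (0.0362). These fits hold the same C and D libraries, so the D minus C differences were unchanged and only the estimate of spread differed. The share of all genes called in them is not given here. Such calls were not confined to these genes. With each library left out in turn, 0 to 15 genes of the pathway lists described below passed for D minus C, against 0 with all 12 libraries. Without C3, the library with plasma cell transcripts, the differences in the fit of the other 11 libraries were 0.62 for Ubash3b (limma adjusted p = 0.179), 0.34 for Ptpn22 (0.213) and 0.24 for Ptpn7 (0.175).

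**Figure D2:**
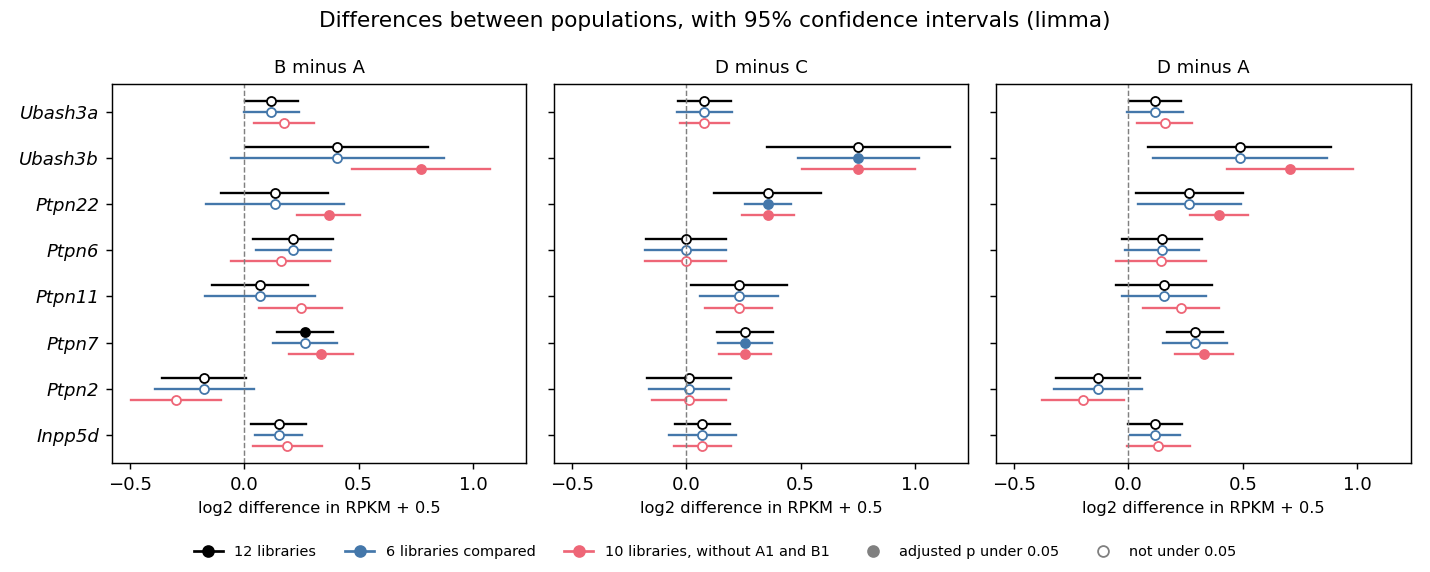
Differences between populations in log2(RPKM + 0.5) (horizontal axis) for each phosphatase gene, with 95% intervals from limma fits of all 12 libraries, of the 6 libraries compared and of the 10 without A1 and B1. Filled points passed an adjusted p of 0.05. Ubash3b, Ptpn22 and Ptpn7 lie above 0 for D minus C. All 3 fits hold the same C and D libraries, so their D minus C differences are the same and only the intervals differ. Leaving out A1 and B1 moves B minus A of Ubash3b from 0.41 to 0.77.

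Between the ends of the sort, D and A, which share libraries with the comparisons above, none of the 8 passed and 0.00998% of all genes did. At an unadjusted p under 0.05 there were 4 of the 8, against 19% of all genes, and limma-voom called 0. The differences were 0.49 ± 0.18 on the log2 scale for Ubash3b (limma adjusted p = 0.199), 0.29 ± 0.057 for Ptpn7 (0.151) and 0.27 ± 0.11 for Ptpn22 (0.215). Without A1 the difference was 0.71 for Ubash3b and 0.40 for Ptpn22, without A2 it was 0.31 for Ubash3b, and without A3 0.16 for Ptpn22. Only Ptpn7 and Inpp5d had no overlap, where 25.8% of all genes had none. Without A1 in limma, Ptpn7 (adjusted p = 0.0341), Ptpn22 (0.0422) and Ubash3b (0.0400) passed, and the share of all genes passing there is not given here. With each library left out in turn, 0 to 10 genes of the pathway lists passed for D minus A.

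C against B compares libraries labelled Ly6C negative and Ly6C positive, both labelled GFP intermediate, although Ly6c1 was higher in all C than in all B libraries. Here 0 of the 8 passed in limma, with 2 at an unadjusted p under 0.05 (13.4% of all genes) and 0 by limma-voom. Of all genes 0.00998% passed. Ubash3b differed by -0.67 and Ptpn7 by -0.23 on the log2 scale (limma adjusted p = 0.285 for both), and these 2 genes had no overlap, as had 15.1% of all genes. Without B1 both passed, Ptpn7 at a limma adjusted p of 0.0447 and Ubash3b at 0.0415, and the share of all genes passing there is not given here. With each library left out in turn, 0 to 13 genes of the pathway lists passed for C minus B. D against B and C against A had 0 genes of the 8 past the limma threshold, 0 at an unadjusted p under 0.05 and 0 by limma-voom. The background there was 0% of all genes at the threshold in both, and at the unadjusted p 4.09% and 14.2%. No gene of the 8 was free of overlap, against 11% and 17.9% of all genes. The limma F test over the 4 populations passed 0 of the 8, with 3 at an unadjusted p under 0.05 (21.7% of all genes), and 0.00998% of all genes passed.

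Leaving out A1 and B1 was decided from their values, so the results without them are descriptions of the other 10 libraries. In that limma fit Ptpn22 differed between B and A by 0.37 on the log2 scale (adjusted p = 0.00507), Ubash3b by 0.77 (0.00641) and Ptpn7 by 0.34 (0.00880). The same 3 genes passed for D against C, at 0.00157, 0.00199 and 0.0127, and for D against A, at 0.00179, 0.00638 and 0.00595. For C against B they were lower in C, at 0.00569, 0.00271 and 0.0200. Of all genes, 10.9%, 7.63%, 8.84% and 7.74% passed in these 4 comparisons. The F test passed these 3 of the 8, and 9.63% of all genes. For D against B every adjusted p was 1.00. No other gene of the 8 passed in any of these tests.

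Without C3 as well, Ptpn11 also passed in limma for B against A (0.25, adjusted p = 0.0484), D against C (0.27, 0.0352) and C against B (-0.29, 0.0392). In the same limma fit so did Ptpn2 (-0.30, 0.0476) and Ubash3a (0.17, 0.0476) for B against A. Each of these differences passed in this fit only, 1 of 27 alternatives. This fit too was chosen from the values and leaves fewer libraries in A, B and C than in D, so it is a description. The genes of the 8 that passed numbered 6 for B against A (16.3% of all genes), 4 for D against C (8.39%), 3 for D against A (13.5%), 4 for C against B (8.71%) and 4 in the F test (13.1%).

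Whether the D minus C step differed in size from the B minus A step was tested directly. D minus C runs from intermediate to high GFP in cells labelled Ly6C negative. B minus A runs from low to intermediate GFP in cells labelled Ly6C positive. Ly6C label and GFP range thus cannot be told apart in this test. None of the 8 genes and 0% of all genes passed in limma, 0 of the 8 had an unadjusted p under 0.05 (15% of all genes did) and limma-voom passed 0. The D minus C step exceeded the B minus A step by 0.35 ± 0.26 on the log2 scale for Ubash3b (limma adjusted p = 0.536) and by 0.22 ± 0.15 for Ptpn22 (0.494). For Ptpn7 the steps differed by -0.01 ± 0.080 (0.963). Without A1 and B1 the differences of steps were -0.02 for Ubash3b (0.970), -0.01 for Ptpn22 (0.959) and -0.08 for Ptpn7 (0.716).

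Set against Nr4a1 rather than the label, the libraries split the same way for 3 genes. The 6 libraries highest in Nr4a1, which were A1, B2, B3, D1, D2 and D3, were also the 6 highest for Ubash3b, Ptpn22 and Ptpn11, 3 of the 8, as they were for 6.19% of the other genes tested. Between the lowest of the 6 and the highest of the other 6, the ratio was 1.23 for Ubash3b, 1.17 for Ptpn22 and 1.04 for Ptpn11. Of the 6 highest libraries for Ptpn7, 5 were among them, with B1 in the place of A1. For Ubash3a and Inpp5d it was 4, for Ptpn6 3 and for Ptpn2 2. No test was made of these splits, since they use the measured Nr4a1 level.

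**Figure D3:**
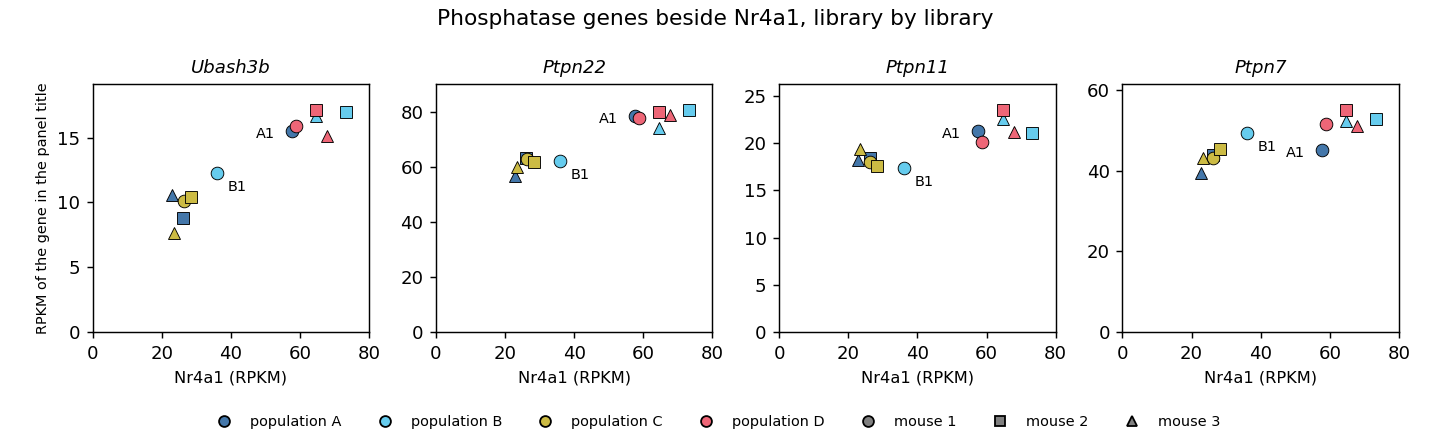
RPKM of Ubash3b, Ptpn22, Ptpn11 and Ptpn7 (vertical axes, from 0) against RPKM of Nr4a1 (horizontal axes), 1 point per library in the colour of its labelled population. A1 lies with the libraries high in Nr4a1 and B1 with those low in it, and the 6 libraries above 57 RPKM of Nr4a1 hold the 6 highest values of Ubash3b, Ptpn22 and Ptpn11.

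Genes of regulatory T cells were high in the same libraries. The 10 markers of that list were all listed, none was at 0 in any library, and their summed level was 57.5 to 141 RPKM in A, 72.5 to 142 in B, 63.9 to 70.9 in C and 134 to 156 in D. A1 stood at 141 and B1 at 72.5. Foxp3, the factor that defines these cells and whose reporter the sort gated out, was 1.15 to 3.76 RPKM in A, 1.51 to 4.00 in B, 1.27 to 1.45 in C and 3.25 to 3.99 in D. The CD8 T cell marker Cd8b1, 1 of 2 listed, ran the other way, at 13.3 to 14.6 RPKM in A and 12.7 to 15.96 in C against 9.94 to 11.5 in B and 10.2 to 11.2 in D. The B cell marker Cd79a, 1 of 12 listed, was 3.58 to 4.75 RPKM in A, 6.58 to 8.80 in B, 3.57 to 37.4 in C and 4.52 to 8.45 in D, with the highest value in C3. The part of regulatory, CD8 or B cells in the differences of the 8 genes was not tested. In sorted bulk samples fewer cells of a type and less RNA per cell cannot be told apart.

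Because Ubash3a and Ubash3b are paralogues with different phosphatase activity, their ratio was taken within each library. Ubash3a RNA exceeded Ubash3b RNA 5.05-, 5.06- and 6.30-fold in C1, C2 and C3 and 3.28-, 3.23- and 3.51-fold in D1, D2 and D3. The mean ratio was 5.47 ± 0.716 in C and 3.34 ± 0.145 in D (SD, n = 3), and the two-sided exact permutation p was 0.1, the smallest that 3 against 3 allows. In A it was 3.38, 5.60 and 4.41, and in B 4.30, 3.11 and 3.33 (exact permutation p = 0.2). For Ptpn6 over Ptpn11, the SHP pair, the mean ratio was 5.86 ± 0.588 in C and 4.96 ± 0.351 in D (exact permutation p = 0.1), and 5.02 ± 0.613 in A and 5.61 ± 1.16 in B (exact permutation p = 0.6).

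**Figure D4:**
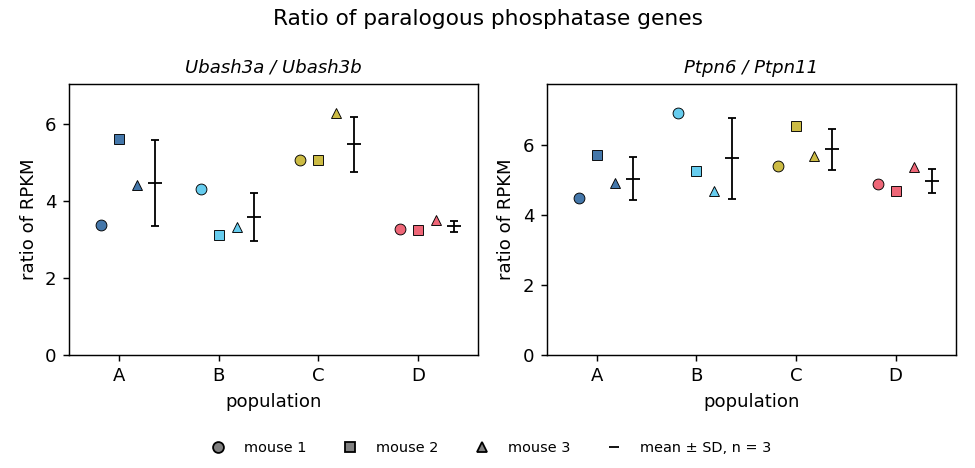
Ratio of RPKM within each library (vertical axis, from 0) for Ubash3a over Ubash3b and for Ptpn6 over Ptpn11, by labelled population, with a symbol for each mouse and bars for the mean ± SD (n = 3). The Ubash3a to Ubash3b ratio is 5.05 to 6.30 in the C libraries and 3.23 to 3.51 in the D libraries.

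Likeness across the 12 libraries was described by Pearson's r of log2(RPKM + 0.5) among genes averaging 5 RPKM or more, with no p because the libraries share mice and populations. Among pairs of the 8, the highest were Ptpn22 with Ubash3b (r = 0.888), Ptpn7 with Ubash3a (0.871) and Ptpn11 with Ptpn22 (0.842). Ptpn2 had a negative r with each of the other 7, from -0.357 to -0.681. The genes most like Ubash3b were Asap1 (0.975), Rgs3 (0.972) and Xdh (0.969), and those most like Ptpn22 were Sox4 (0.985), Spata13 (0.984) and Maf (0.982). For Ptpn7 they were Nab2 (0.955), Git2 (0.952) and Cd6 (0.949), and for Ptpn11 Sla (0.968), Map3k5 (0.966) and Ptms (0.933). Ubash3a was most like Rin3 (0.927), Gsn (0.920) and Nfkbib (0.916), and Ptpn6 most like Akna (0.955), Rnpepl1 (0.942) and Mfng (0.933). For Inpp5d they were Cdk5rap3 (0.950), Tbc1d17 (0.944) and Ap5z1 (0.942), and for Ptpn2 Washc4 (0.910), Nab1 (0.897) and Armc1 (0.881).

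Genes around these enzymes, among them their substrates and proteins that recruit them, were described as lists. Of 24 kinases, receptor chains, adaptors and STATs, 23 were tested, and none was called in either direction by limma between B and A or between D and C in all 12 libraries. Their median difference was 0.059 and 0.069 on the log2 scale, against 0.014 and 0.013 over all genes. In the fit of the 6 libraries of D and C, where 336 of all 10021 genes rose and 145 fell, Stat5a (0.33) and the Src family kinase Fyn (0.31) rose, and none fell.

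Of 26 receptors and adaptors grouped around SHP-1, SHP-2 and SHIP-1, not all of them direct recruiters, 23 were tested. From A to B in all 12 libraries, 57 of all 10021 genes rose and 166 fell. On this list 2 genes rose. They were the scavenger receptors Cd6 (0.59 ± 0.13 on the log2 scale, limma adjusted p = 0.0463) and Cd5 (0.61 ± 0.14, 0.0487), and none fell. Both calls were lost with the mouse as a replicate block (limma adjusted p = 0.0711 for Cd6 and 0.0807 for Cd5), with no variance trend (0.0712 and 0.0757) and with the GC content and length trend removed (0.137 and 0.217). For D minus C none of the list was called in all 12 libraries. In the fit of the 6 libraries of D and C, 7 of the 23 rose and 2 fell, where 336 of all 10021 genes rose and 145 fell. Pdcd1, which encodes PD-1, rose by 2.23 on the log2 scale (mean 1.68 RPKM in C and 9.71 in D), Cd5 by 0.81 and Cd6 by 0.72, while the adaptor Sit1 fell by 0.40 and the collagen receptor Lair1 by 0.62. The list's median was 0.088 for B minus A and 0.106 for D minus C.

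Among 22 other protein tyrosine phosphatases, 17 were tested, and Ptp4a1 fell from A to B by 0.52 ± 0.099 on the log2 scale (limma adjusted p = 0.0401) while none rose. That call was lost with the replicate block (0.0552), with no variance trend (0.0667) and with the GC content and length trend removed (0.270). Single libraries ended calls on these list genes too: without A2, A3, B2, B3, C2, D2 or D3 none of Cd6, Cd5 and Ptp4a1 passed, and without D1 only Ptp4a1 did. In the 6 libraries of D and C the receptor phosphatases Ptprs (1.15) and Ptprf (0.69) rose, from low means of 1.52 and 0.562 RPKM in C. Of 17 dual-specificity MAP kinase phosphatases, 12 were tested and none passed in all 12 libraries. In the 6 libraries of D and C the ERK phosphatases Dusp6 (0.43) and Dusp4 (1.45) rose. Of 26 PI3-kinase and phosphoinositide phosphatase genes, all tested, none passed in all 12 libraries. In the 6 libraries of D and C, Inppl1, the gene for SHIP-2 (0.89), and Inpp5f (0.46) rose and the PI3-kinase subunit Pik3r5 fell by 0.40. In the 6 libraries of A and B, Sacm1l and Inpp4b fell, by 0.35 and 0.27. Of the other lists, Themis, an adaptor that binds SHP-1, fell there by 0.34, Ptp4a1 by 0.52 and Ptp4a2 by 0.18, and no list gene rose, where 61 of all genes rose and 319 fell.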

How the data were processed

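Polyadenylated RNA of sorted CD4 T cells was measured. Per the labels' protocols, sorted cells were lysed, their RNA was isolated with Quick-RNA MicroPrep columns, and SMART-seq v4 cDNA was made into NexteraXT libraries. The submitters' processing notes name STAR and the builds mm9 and mm10, without roles. The sources used here name no counting tool, strand setting or annotation, so reads shared with overlapping or antisense genes cannot be told apart, and no gene positions are printed beside the RefSeq windows.

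The authors deposited RPKM values of 10073 genes, 3 without a symbol, per the file headers. RPKM are not counts, so no count model was the test. Multiplied by length and depth, 100% of the 7921 to 8316 values examined per library came out as whole reads (within 0.1). The depth so recovered was 6.31 to 9.07 M reads, of which the listed genes held 99.07% (C3) to 99.71% (C2). Intervals on reads cover counting error only.

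The 10021 genes averaging 0.5 RPKM or more were fitted with limma 3.58.1 in R 4.3.3, with a variance trend and no block, on log2(RPKM + 0.5), which understates changes of low genes. Python 3.11.15 with pandas 2.3.3, numpy 2.4.6, scipy 1.17.1 and matplotlib 3.10.9 did the rest. The script was tested on simulated data. Libraries of one number come from 1 mouse by the labels. On deviations from population means the 18 same-mouse pairs had a mean correlation of -0.072 across genes (-0.613 to 0.379, 1 over 0.1), against 0.032 for different mice. P-values measure the spread between libraries of 3 mice.

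The 8 genes, the lists and the tests were chosen with earlier results of these data known. All 8 genes are given. From each list up to 3 genes per direction past the threshold, by adjusted p, are named, and for each of the 8 the 3 most alike genes. Of the list genes due, 1 is not reported here. Alternatives were pseudocounts of 0.1 and 1, a minimum mean of 5 RPKM or none, quantile normalization, median rescaling, a replicate block, no trend, robust moderation, removal of a GC and length trend (GENCODE M21 transcripts, 98.3% of genes tested), the 6 libraries compared alone, and each library left out. Fits without A1 and B1, also without C3, and limma-voom on recovered reads were chosen after seeing the data.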

Additional observations from a re-analysis of the deposited data

How the results depend on the processing

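Of 831 values of 31 gene differences over all settings, 750 kept their direction and side of the threshold, 43 newly passed, 12 no longer passed and 26 changed sign. Only Ptpn7 for B minus A had passed with all 12 libraries, so most that kept their side stayed short of the threshold. Leaving out a library of neither population compared cannot change a difference, only its estimate of spread. For B minus A, 1 of the 8 genes passed with all 12 libraries. The count was 0 with the replicate block, with no trend, with the GC and length trend removed, in the 6 libraries alone and in those with the replicate block, 0 to 1 without each library, 3 without A1 and B1, and 6 without A1, B1 and C3. For D minus C it was 0, against 3 in the 6 libraries alone, 3 in those with the replicate block, 0 to 3 without each library, 3 without A1 and B1, and 4 without C3 as well. Calls over all genes rose too. For D minus C they were 0.00998% with 12 libraries, 4.8% in the 6 alone, 7.63% without A1 and B1, and 8.39% without C3 as well. For B minus A they were 2.23%, 3.79%, 10.9% and 16.3% in the same order. Leaving out each library, A1 and B1, and C3 as well gave, for D minus A (0), 0 to 3, 3 and 3, for C minus B (0), 0 to 2, 3 and 4, and for the F test (0), 0 to 2, 3 and 4. Without A1 and B1, and without C3 as well, 8.84% and 13.5% of all genes passed for D minus A. For C minus B the shares were 7.74% and 8.71%, and for the F test 9.63% and 13.1%. Shares with each library left out and with the replicate block are not given here. The 6 libraries alone called 0 for D minus A and 0 for C minus B. Pathway list genes passing without each library numbered 0 to 6 for B minus A and 0 to 15 for D minus C. They numbered 0 to 10 for D minus A and 0 to 13 for C minus B. The F test's 2 came without A1 and, separately, without B1. The replicate block changed no other call of the 8 genes in the fit of 12 libraries, and of the listed pathway genes called between B and A it left 0 of 3. Ptpn7 between B and A passed in 15 of 27 alternatives, with adjusted p from 0.0049 to 0.186 in limma.

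Signs changed for differences that had not passed the threshold. Ptpn2 for D minus C (0.012 on the log2 scale) was -0.0026 with median rescaling, -0.014 with quantile normalization, -0.034 with the GC trend removed, -0.0032 without A1, B1 and C3, and -0.037 to 0.052 without each library. Ptpn6 for D minus C (-0.0020) was 0.011 with quantile normalization, 0.018 without A1, B1 and C3, 0.00057 with limma-voom and -0.072 to 0.061 without each library. With the GC trend removed, Ptpn2 for B minus A was 0.040 and Ptpn11 -0.012 (-0.0086 to 0.17 without each library). The difference of steps was 0.025 for Ptpn7 with the GC trend removed (-0.050 to 0.049 without each library). It was -0.012 for Ptpn22 and -0.020 for Ubash3b without A1 and B1, and -0.032 and -0.15 without C3 as well. The cause of these changes was not tested. Scaling moved the median of all genes by under 0.02.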
